A study of Mus musculus with 12 samples.

Results

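Genes of presynaptic vesicle release were examined in RNA sequencing counts from the hippocampus and the cerebral cortex of WT and 5 × FAD mice. The deposited count table is labelled as counts of long non-coding RNAs (lncRNAs). A list of 56 genes was matched by gene name in the GENCODE M21 annotation to the transcripts of this table. Of these genes, 41 had a row. Shares given below for all gene sums or all transcripts refer to this table. These 41 genes were represented by 125 of the 48033 transcripts in the table. They were analysed both per transcript and as the sum of the transcripts of each gene, here called the gene sum. The 15 listed genes with no matching row (Snap47, Stx16, Syt4, Syt5, Syt7, Syt13, Syn1, Syngr1, Rims1, Rims2, Bsn, Unc13c, Cplx1, Cplx2 and Rph3a) were not analysed here.

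The study compared 5 × FAD mice with non-transgenic WT mice, all aged 7 months and of C57BL/6J background, in order to relate long RNAs to Alzheimer's disease. The 5 × FAD strain carries mutant human APP (Swedish, Florida and London mutations) and mutant human PS1, both driven by neuronal elements of the mouse Thy1 gene. Both regions were taken from 3 mice of each genotype, so that the 12 libraries form 4 groups of 3, with no treatment in any group. The labels do not say which hippocampus and cortex libraries come from the same mouse.

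Transmitter release begins when a vesicle filled with glutamate or GABA docks at the active zone, a protein scaffold on the inner face of the presynaptic membrane. SNARE proteins of the vesicle and of the target membrane zip together under the control of priming proteins, and synaptotagmin triggers fusion when calcium enters. The vesicle membrane is then taken back by endocytosis with clathrin adaptors, dynamin and synaptojanin. Loss of presynaptic proteins is a known feature of Alzheimer's disease, and hippocampal synapses are among those affected early.

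The transcripts counted here were not annotated as messenger RNAs of these genes. Of the 125 transcripts, 78 were annotated as retained-intron transcripts, 47 as processed transcripts without an open reading frame, and 0 as protein-coding. The same genes have 366 annotated transcripts, of which 208 are protein-coding. The rows ranged from 287 to 17063 bases in length, and 2 of them, both of Unc13b, had 0 counts in every library. A gene sum is therefore a sum of counts assigned to non-coding transcripts. A read that lies in an exon shared with a coding transcript cannot be assigned to one or the other from the count alone. In addition, 20 of the transcripts overlap a gene on the opposite strand and 4 transcripts of Syn2 overlap another gene on the same strand. Library construction kept the strand, but whether counting used it was not given in the sources used here.

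How these transcripts leave the coding sequence is shown for the transcripts on which the results below turn. In 46 transcripts, a coding exon runs on without splicing into sequence that lies outside all coding transcripts, at 58 boundaries in total, and at 57 of these the sequence after the exon starts with gt, the start of a normal intron. The sequences below are read on the strand of the transcript (GENCODE M21 transcripts, GRCm38), with coding exon bases in capitals and bases outside coding transcripts in lower case. The Ppfia2 sequences mark a coding exon spliced to a terminal exon that coding transcripts do not use, and an internal start just before a coding exon. The Pclo, Synj1, Sv2b, Slc17a7, Snap25 and Stx1a sequences mark a 5′ splice site that the annotated transcript runs through.
Ppfia2 ENSMUST00000169303, + strand, lower-case part at chr10:106776415-106776444: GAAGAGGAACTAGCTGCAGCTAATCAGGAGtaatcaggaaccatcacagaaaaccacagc
Ppfia2 ENSMUST00000219024, + strand, chr10:106893402-106893461: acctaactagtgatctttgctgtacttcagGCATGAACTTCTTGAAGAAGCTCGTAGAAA
Pclo ENSMUST00000182426, + strand, chr5:14679984-14680043: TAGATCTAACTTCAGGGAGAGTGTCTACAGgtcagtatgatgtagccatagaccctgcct
Synj1 ENSMUST00000118246, - strand, chr16:90960530-90960589: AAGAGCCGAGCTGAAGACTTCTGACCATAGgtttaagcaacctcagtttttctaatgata
Sv2b ENSMUST00000206236, - strand, chr7:75206060-75206119: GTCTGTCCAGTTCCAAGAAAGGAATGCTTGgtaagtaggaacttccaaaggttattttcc
Slc17a7 ENSMUST00000211652, + strand, chr7:45172161-45172220: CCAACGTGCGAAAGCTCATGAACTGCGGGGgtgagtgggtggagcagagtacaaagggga
Snap25 ENSMUST00000125486, + strand, chr2:136758323-136758382: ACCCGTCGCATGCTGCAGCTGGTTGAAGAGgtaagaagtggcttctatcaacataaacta
Stx1a ENSMUST00000144198, + strand, chr5:135045705-135045764: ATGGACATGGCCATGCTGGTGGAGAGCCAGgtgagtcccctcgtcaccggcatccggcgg

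In this lncRNA table the libraries held 3517967 to 5014389 counts, of which the 41 genes took between 0.443% and 0.804%. The series states that each genotype group held females and a male, but Y-linked transcripts had 1074 to 1661 counts in all 6 WT libraries and in both libraries labelled 5 × FAD 3, and 0 in both regions of 5 × FAD 1 and 5 × FAD 2. Thy1, whose elements drive the transgenes, had 139 to 202 counts in the WT libraries, 423 to 621 in 5 × FAD 1 and 2, and 157 and 158 in 5 × FAD 3. Libraries are named by their labels throughout, and genotype differences are also given without 5 × FAD 3 and with a term for Y-linked counts, which leaves 5 × FAD 3 against WT. Without 5 × FAD 3, all 5 × FAD libraries lack Y-linked counts and all WT libraries have them. Genotype and the presence of Y-linked counts cannot be told apart in those fits. Of 12 hippocampal marker genes, 6 had counts, summing to 253 to 292 counts per 1000000 (CPM) in the WT hippocampus and 118 to 171 CPM in the WT cortex. Most of this sum was Zbtb20 (means of 114.5 CPM in the WT hippocampus and 30.4 CPM in the WT cortex) and Man1a (138.2 and 77.8 CPM). Spag5 (12.7 and 32.1 CPM) and Nrgn (5.77 and 6.38 CPM) went the other way. Of 12 cortical markers, 7 had counts, summing to 194 to 204 CPM in the WT hippocampus and 453 to 526 CPM in the WT cortex. Several defining markers, such as Prox1 for the hippocampus and Fezf2 for the cortex, had no row or no counts in this table. Marker values here and below are likewise sums of the rows of each gene in this lncRNA table. A marker without counts here may still be expressed.

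Per kilobase of transcript, Syt1 was the most abundant member, with a mean of 398 CPM per kb over the 12 libraries. Syt1 encodes synaptotagmin-1, the calcium sensor of fast release. It was followed by Dnm1 (281 CPM per kb), which encodes the dynamin that pinches off vesicles, and Slc17a7 (257 CPM per kb), which encodes the vesicular glutamate transporter VGLUT1. Amph (202 CPM per kb) and Snap91 (153 CPM per kb), both endocytic adaptors, came next. Syt2, Syt11 and Doc2a had at most 4 counts in any library, Syngr3 at most 10 and Slc17a6, the glutamate transporter VGLUT2 typical of subcortical neurons, at most 22. These low members passed the filter on low counts in few comparisons or in none, and 36 gene sums were tested in each comparison of groups.

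The levels of the member with the highest mean CPM in each role class are given for every library. Snap25, the target SNARE of synaptic vesicle fusion, had 1358, 1121 and 879 counts in the WT hippocampus, 730, 868 and 865 in the 5 × FAD hippocampus, 1100, 1029 and 1066 in the WT cortex, and 1173, 1079 and 1264 in the 5 × FAD cortex. All of them came from ENSMUST00000125486, of which 93.4% lies outside coding transcripts. The Snap25 groups overlapped in both genotype comparisons.
Vamp1, a vesicle SNARE, had 216, 177 and 205 counts in the WT hippocampus, 184, 250 and 203 in the 5 × FAD hippocampus, 189, 244 and 147 in the WT cortex, and 251, 144 and 211 in the 5 × FAD cortex. Its main transcript overlaps Tapbpl on the opposite strand. Syt1 had 2286, 2081 and 2651 counts in the WT hippocampus, 2245, 1499 and 1176 in the 5 × FAD hippocampus, 2175, 4859 and 1498 in the WT cortex, and 1896, 1520 and 2832 in the 5 × FAD cortex. The high Syt1 value of the WT cortex 2 library came largely from ENSMUST00000147593, with 2705 counts there against 673 and 126 in the other WT cortex libraries.
Unc13a, which encodes the priming factor Munc13-1, had 621, 475 and 492 counts in the WT hippocampus, 562, 586 and 648 in the 5 × FAD hippocampus, 551, 716 and 639 in the WT cortex, and 657, 387 and 461 in the 5 × FAD cortex. Snap91, which encodes the clathrin adaptor AP180, had 2840, 2630 and 2616 counts in the WT hippocampus, 3387, 1914 and 2305 in the 5 × FAD hippocampus, 2381, 2807 and 1177 in the WT cortex, and 2067, 2423 and 2681 in the 5 × FAD cortex. The Snap91 groups overlapped in both genotype comparisons, and those of Unc13a overlapped in the cortex. The leading members of the vesicle protein and active zone classes, Slc17a7 and Pclo, varied more between replicates and are described with the genotype comparison.

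**Figure D1:**
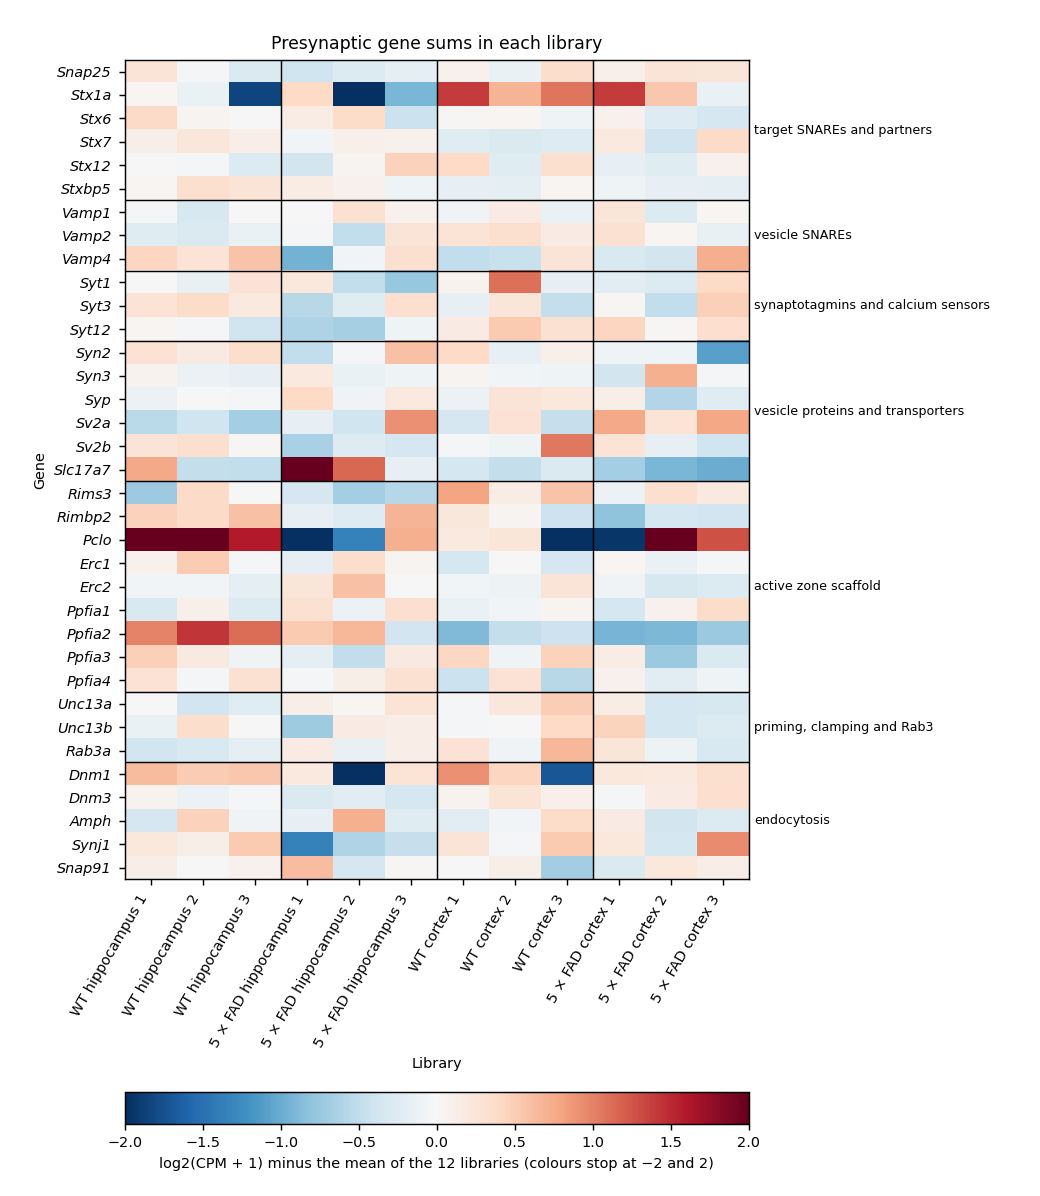
Gene sums of the 35 presynaptic genes with a mean of at least 2.5 CPM (rows, grouped by role) in each of the 12 libraries (columns), as log2(CPM + 1) minus the mean of the gene over all libraries, with colours stopping at -2 and 2. The Ppfia2 row is red in the 3 WT hippocampus libraries and blue in all 6 cortex libraries, while Pclo, Slc17a7, Stx1a and Dnm1 show single libraries far from the rest of their group.

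Hippocampus and cortex were compared within each genotype. In WT mice, the Ppfia2 gene sum was 3.43 times as high in the hippocampus as in the cortex. Ppfia2 was the only member gene sum called, that is, with an adjusted p under 0.05, by edgeR. Ppfia2 encodes liprin-α2, an active zone scaffold protein that binds RIM and other release proteins and organises release sites. Its gene sum had 979, 1351 and 1007 counts in the WT hippocampus and 240, 349 and 269 counts in the WT cortex. Every hippocampus library was above every cortex library. The group means were 238 ± 37.8 and 69.4 ± 11.7 CPM (SD, n = 3 each), scaled within this comparison. The log2 difference of hippocampus minus cortex was 1.78 with a standard error of 0.19 and an adjusted p of 0.0072 (edgeR's quasi-likelihood test, Benjamini-Hochberg adjusted over all gene sums). In all, 399 of 11429 gene sums (3.49%) were called in this comparison, and 1 of the 36 members. Hippocampus and cortex were dissected from the same mice, and with the replicate number as a block the Ppfia2 call was lost, at a log2 difference of 1.78 and an adjusted p of 0.054, with 5 gene sums called in all. DESeq2, without the block, called Ppfia2 and Stx1a. In bulk tissue, more cells that make a transcript and more transcript per cell cannot be told apart.

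Both Ppfia2 transcripts in the table took part in this difference. ENSMUST00000169303 covers the start of the gene (chromosome 10, 106470340 to 106777999 on GRCm38), has 7 exons, and ends in its own exon of 1585 bases, so that 63.8% of it lies outside coding transcripts. It had 357, 564 and 350 counts in the WT hippocampus and 77, 67 and 85 in the WT cortex. Its log2 difference was 2.26 (standard error 0.28, adjusted p = 0.0291 by edgeR). Its last exon overlaps C230021G24Rik and 4930532I03Rik on the opposite strand.
ENSMUST00000219024 lies at the other end of the gene (106893006 to 106932512), shares no exon with ENSMUST00000169303 and starts inside an intron, with 426 of its 2977 bases outside coding transcripts. It held 66.3% of the Ppfia2 counts over the 12 libraries. Reads in its other bases cannot be assigned to it or to a coding transcript from the count alone. ENSMUST00000219024 had 622, 787 and 657 counts in the WT hippocampus and 163, 282 and 184 in the WT cortex. Its log2 difference was 1.55 (standard error 0.21, adjusted p = 0.0363 by edgeR). These were the 2 of 100 tested member transcripts called by edgeR, where 0.986% of all transcripts were called. With the replicate block neither was called, with adjusted p of 0.254 and 0.213. Both transcript calls were also lost when any 1 of the 6 libraries was left out, with adjusted p between 0.0631 and 0.147, whereas the gene sum was called in each of those fits.

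**Figure D2:**
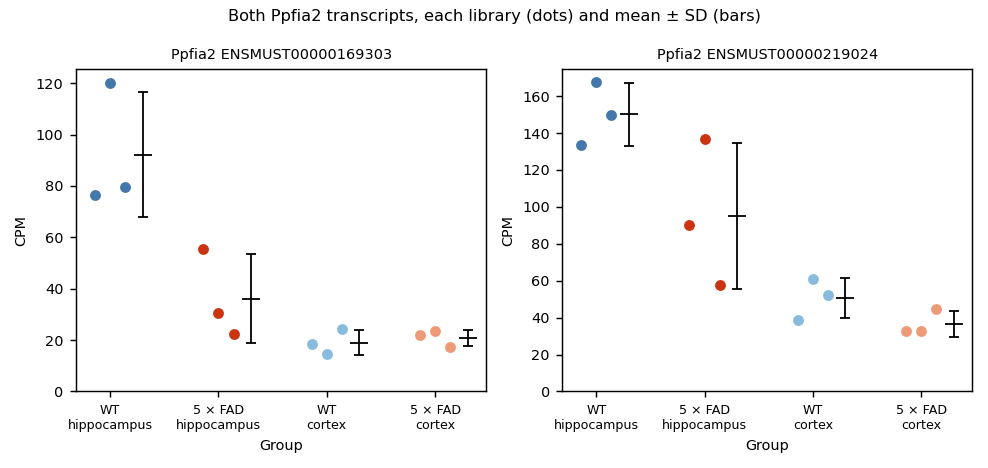
CPM of Ppfia2 ENSMUST00000169303 (left) and ENSMUST00000219024 (right) in each library (dots) of the 4 groups, with the mean and SD of the 3 libraries (bars), on axes that start at 0. For both transcripts the WT hippocampus libraries are the highest group and lie above all cortex libraries, and the 5 × FAD hippocampus libraries lie between the WT hippocampus and the cortex or overlap them.

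In 5 × FAD mice, Ppfia2 had 598, 725 and 328 counts in the hippocampus and 248, 210 and 273 in the cortex. The groups again did not overlap in CPM, with means of 134 ± 45.9 and 58.5 ± 3.8 CPM (SD, n = 3 each). The log2 difference was 1.20 (standard error 0.28, adjusted p = 0.169 by edgeR), so that it was not called in the fit of the 6 libraries, in which 0.193% of gene sums and 0 of the 36 members were called. It was called when all 12 libraries shared one estimate of the spread (adjusted p = 0.0347). The Ppfia2 region difference was smaller by 0.60 on the log2 scale in 5 × FAD than in WT mice, with a standard error of 0.35, and this difference between genotypes did not pass the interaction test (adjusted p = 0.759 by edgeR). ENSMUST00000169303 made up 34.8% to 41.8% of the Ppfia2 sum in the WT hippocampus, 18.2% to 38.1% in the 5 × FAD hippocampus, and 19.2% to 41.9% over the 6 cortex libraries.

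The other liprin genes overlapped between the regions in WT mice. Their log2 differences were -0.11 for Ppfia1 (standard error 0.16), -0.08 for Ppfia3 (standard error 0.20) and 0.38 for Ppfia4 (standard error 0.25). Whether they differed from that of Ppfia2 was not tested. No other gene sum of the active zone class was called by edgeR in the fit of all 6 libraries, and 5 of the 9 tested were higher in the hippocampus. Markers of neighbouring tissues were measured in the same libraries. Kl, the 1 choroid plexus gene of 6 with counts, was at 16.6 to 33.2 CPM in the WT hippocampus and 3.65 to 4.06 CPM in the WT cortex. Ttr and Folr1 had no row or no counts. The 5 striatal markers of 7 with counts summed to 79.2 to 248 CPM in the WT hippocampus and 235 to 378 CPM in the WT cortex. Drd2 and Adora2a had no row or no counts. These striatal ranges overlapped, and 0 of the 4 striatal markers tested were called by edgeR. Kl was called by edgeR for the region in WT mice, at a log2 difference of 2.78. So was 1 of the 7 thalamic markers tested, whose sums of 96.3 to 128 CPM in the WT hippocampus and 73.4 to 206 CPM in the WT cortex overlapped. The part of these neighbouring tissues in the Ppfia2 difference was not tested.

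Among the SNAREs, Vamp2 and Stx1a had the smallest unadjusted p for the region in WT mice, both lower in the hippocampus without being called by edgeR. Stx1a, which encodes the target SNARE syntaxin-1A, had 148, 133 and 35 counts in the WT hippocampus and 351, 231 and 225 in the WT cortex. The groups did not overlap, and the log2 difference was -1.55 (standard error 0.47, adjusted p = 0.154 by edgeR and 0.0202 by DESeq2). Its transcript ENSMUST00000144198 had 29, 19 and 18 counts against 79, 62 and 47, a log2 difference of -1.67 (standard error 0.28, adjusted p = 0.0617 by edgeR and 0.00217 by DESeq2). With only transcripts of at least 10 counts in every library tested, edgeR called it too, at an adjusted p of 0.0348.
Vamp2, which encodes the main vesicle SNARE of the forebrain, was at 39.1 ± 2.5 CPM in the WT hippocampus and 54.8 ± 3.3 CPM in the WT cortex (SD, n = 3 each). These groups did not overlap either, and the log2 difference was -0.49 (standard error 0.13, adjusted p = 0.113 by edgeR). Of the 36 member gene sums, 11 did not overlap between the regions in WT mice, where 24.8% of all gene sums did not, and 8 had an unadjusted p under 0.05, where 17.3% of all did. The 11 were Ppfia2, Pclo, Rimbp2, Stx7, Stxbp5 and Vamp4, higher in the hippocampus, and Stx1a, Vamp2, Rab3a, Syt12 and Dnm3, lower there. Of the members, 19 of 36 were lower in the hippocampus, where 52.0% of all were, and their median log2 difference was -0.048, beside -0.021 over all gene sums.

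In 5 × FAD mice, 9 member gene sums did not overlap between the regions, where 19.3% of all gene sums did not, and 8 had an unadjusted p under 0.05, where 12.6% of all did. Snap25 was at 201 ± 16.6 CPM in the 5 × FAD hippocampus and 282 ± 16.4 CPM in the 5 × FAD cortex (SD, n = 3 each), a log2 difference of -0.49 (standard error 0.16, adjusted p = 0.288 by edgeR). Synj1, Rims3, Syt12 and Dnm3 were likewise lower in every hippocampus library than in any cortex library, and Ppfia2, Erc2, Slc17a7 and Stxbp5 were higher in every one. None of these was called by edgeR, and 0 of the 94 member transcripts tested were, where 0.0182% of all were called. DESeq2 called the gene sums of Slc17a7 (adjusted p = 0.000645) and Ppfia2 (0.0125). It also called the transcripts ENSMUST00000219024 of Ppfia2 (0.049) and ENSMUST00000210479 of Ppfia3 (0.000367). Of the members, 18 of 36 were lower in the hippocampus, where 48.9% of all were, and their median log2 difference was 0.004, beside 0.012 over all gene sums.

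**Figure D3:**
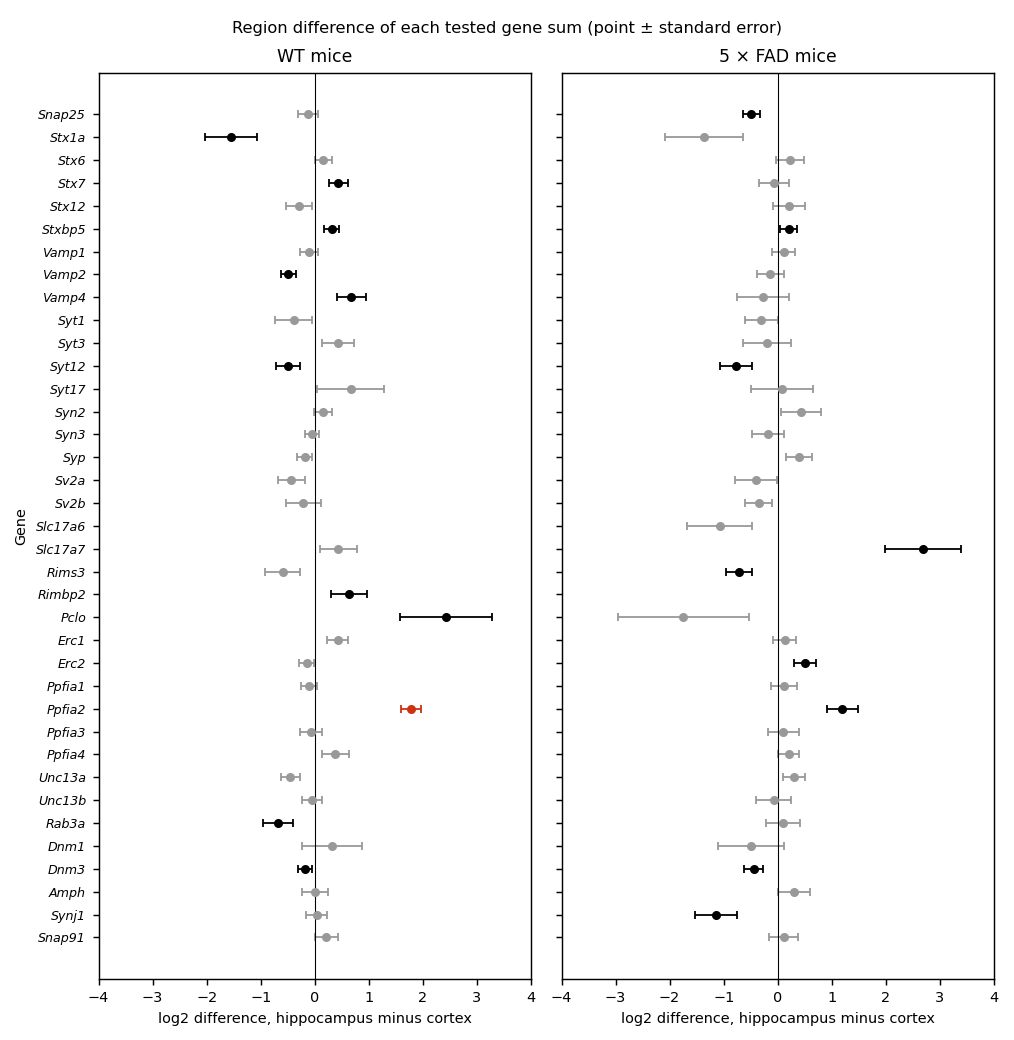
log2 difference of hippocampus minus cortex for each tested presynaptic gene sum (points) with its standard error (bars), in WT mice (left) and 5 × FAD mice (right). Ppfia2 in WT mice, at 1.78, is the only point past the adjusted threshold in edgeR (red), which it misses with the replicate block, black points mark groups that do not overlap, and grey points mark groups that do.

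WT and 5 × FAD mice were compared within each region, which addresses the question of the study most directly. In the hippocampus, 23 of the 36 tested member gene sums were lower in 5 × FAD than in WT mice, where 46.9% of all gene sums were lower. Their median log2 difference was -0.132, beside 0.031 over all gene sums. No member was called by edgeR, either as a gene sum (0.0529% of all were called) or as a single transcript (0.0183% of all were called). At an unadjusted p under 0.05 in edgeR, 4 members were lower, where 3.86% of all gene sums were, and 1 was higher, where 8.69% of all passed in either direction, and DESeq2 called 0 member gene sums and 1 member transcript, ENSMUST00000210844 of Ppfia3. Groups did not overlap for 11 members, 7 of them lower in 5 × FAD, where 16.4% of all gene sums did not overlap and 8.19% were lower without overlap. Synj1, Sv2b, Ppfia2 and Pclo combined an unadjusted p under 0.05 with groups that did not overlap.

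Synj1 encodes synaptojanin-1, the phosphatase that strips the clathrin coat from vesicles after endocytosis. It had 311, 294 and 366 counts in the WT hippocampus and 86, 162 and 168 in the 5 × FAD hippocampus, or 69.2 ± 11.3 and 33.3 ± 10.5 CPM (SD, n = 3 each). All 3 libraries labelled 5 × FAD were below all WT libraries. The log2 difference was -1.05 (standard error 0.28, adjusted p = 0.495 by edgeR), -1.24 without 5 × FAD 3 and -0.745 with the term for Y-linked counts. In the WT cortex Synj1 had 290, 259 and 283 counts, which overlapped the 300, 167 and 485 of the 5 × FAD cortex. Most of the Synj1 counts belong to ENSMUST00000118246, of which 94.3% is coding exon. It had 264, 229 and 300 counts in the WT hippocampus and 49, 72 and 128 in the 5 × FAD hippocampus. ENSMUST00000156140, which lies to 75.0% outside coding transcripts, had 38, 51 and 52 counts against 33, 74 and 29, which overlapped.

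Sv2b encodes a membrane glycoprotein of synaptic vesicles. It had 240, 253 and 191 counts in the WT hippocampus and 106, 153 and 136 in the 5 × FAD hippocampus, or 48.4 ± 4.9 and 31.6 ± 4.6 CPM (SD, n = 3 each). The log2 difference was -0.61 (standard error 0.19, adjusted p = 0.526 by edgeR), -0.655 without 5 × FAD 3 and -0.534 with the term for Y-linked counts. Sv2b counts of 176, 186 and 308 in the WT cortex overlapped those of the 5 × FAD cortex, at 234, 141 and 140. Its main transcript ENSMUST00000206236 lies to 71.1% outside coding transcripts, and the retained sequence printed above belongs to it.

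Ppfia2 was also lower in the 5 × FAD hippocampus, with 598, 725 and 328 counts against 979, 1351 and 1007 in the WT hippocampus. The means were 132 ± 45.3 and 236 ± 37.4 CPM (SD, n = 3 each). The log2 difference was -0.84 (standard error 0.29, adjusted p = 0.527 by edgeR). It moved to -0.586 without 5 × FAD 3, the lowest of the 3, and to -1.55 with the term for Y-linked counts. In the cortex the log2 difference of Ppfia2 was -0.27 (standard error 0.17), and the groups overlapped.

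Pclo encodes Piccolo, one of the largest active zone scaffold proteins. Its single transcript ENSMUST00000182426 has 23 exons and 17063 bases, of which 88.9% are coding exon, and retains 1 intron of 356 bases. It had 10499, 9548 and 5647 counts in the WT hippocampus and 111, 720 and 2836 in the 5 × FAD hippocampus. The groups did not overlap, but the SD of the 5 × FAD libraries (353 CPM, n = 3) was larger than their mean (296 CPM). The log2 difference was -2.61 (standard error 0.97, adjusted p = 0.540 by edgeR), -4.23 without 5 × FAD 3 and -1.38 with the term for Y-linked counts. In the WT cortex the Pclo counts were 2068, 2329 and 113, and in the 5 × FAD cortex 496, 6991 and 4501, so that the order of the group means was the opposite.

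Slc17a7 was the member with an unadjusted p under 0.05 that was higher in the 5 × FAD hippocampus, but its groups overlapped. The WT hippocampus libraries had 3902, 1666 and 1533 counts and those labelled 5 × FAD 14888, 4687 and 1777, a log2 difference of 1.80 (standard error 0.76, adjusted p = 0.569 by edgeR). In 5 × FAD 1, 13868 counts belonged to ENSMUST00000211652, which had 161 and 413 counts in the other 5 × FAD hippocampus libraries. In 5 × FAD 2, 3947 counts belonged to ENSMUST00000210540, which had 561 and 665 counts in the others. The third transcript, ENSMUST00000210498, ranged from 459 to 855 counts over all 6 hippocampus libraries. The log2 difference of Slc17a7 was 0.591 without 5 × FAD 1, 2.04 without 5 × FAD 2 and 2.25 without 5 × FAD 3, so that its direction was kept when any 1 of these was left out. With the term for Y-linked counts it was -0.2.

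By role in the hippocampus, all 4 tested synaptotagmins, 5 of the 6 target SNAREs and partners, and 7 of the 9 active zone genes were lower in 5 × FAD. Of all gene sums, 46.9% were lower, and edgeR called none of these members. The median log2 differences of these classes were -0.328, -0.111 and -0.336 in the same order. At an unadjusted p under 0.05 in edgeR, 0 synaptotagmins, 0 target SNAREs and partners and 2 active zone genes were lower. Of the 5 endocytic genes, 3 were lower. The vesicle SNAREs (2 of 3 higher), the vesicle proteins (4 of 6 higher) and the priming and Rab3 genes (2 of 3 higher) had medians above 0. Unc13a was at 144 ± 13.0 CPM in 5 × FAD and 113 ± 16.4 CPM in WT (SD, n = 3 each), without overlap, a log2 difference of 0.36 (standard error 0.18, adjusted p = 0.603 by edgeR). Markers of neurons and other cells were measured in the same libraries, and edgeR called 0 of those tested for genotype in the hippocampus in each of the lists given here. The 7 of 10 neuronal markers with counts, which include Snap25 and Syt1, summed to 3120 to 3497 CPM in WT and 2795 to 3066 CPM in 5 × FAD. Most of the neuronal sum was Eno2, at means of 2039 CPM in WT and 1853 CPM in 5 × FAD. The means of Rbfox3, Thy1 and Stmn2 were higher in 5 × FAD. Over the 7 neuronal markers tested, the median log2 difference was -0.12. The 5 of 13 microglial markers with counts summed to 33.9 to 44.2 CPM in WT and 50.1 to 210 CPM in 5 × FAD. Cx3cr1 and P2ry12 had no row or no counts. Most of the microglial sum was Trem2, at a mean of 26.2 CPM in WT and 135 CPM in 5 × FAD. Trem2 had 129, 91 and 142 counts in the WT libraries, 714 and 809 in 5 × FAD 1 and 2, and 164 in 5 × FAD 3. The 5 of 8 astrocyte markers with counts summed to 1410 to 1536 CPM in WT and 528 to 1187 CPM in 5 × FAD, and the 5 of 10 oligodendrocyte markers with counts to 346 to 437 CPM and 503 to 598 CPM. The largest part of each of these sums was 1 gene, Slc1a3 (means of 1349 CPM in WT and 657 CPM in 5 × FAD) for astrocytes and Cnp (212 and 344 CPM) for oligodendrocytes. The median log2 difference was 0.016 over the 4 astrocyte markers tested and -0.084 over the 5 oligodendrocyte markers, and the means of Mbp, Mag and Mobp were lower in 5 × FAD. Their part in the differences of the presynaptic genes was not tested.

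At the level of single transcripts in the hippocampus, ENSMUST00000210844 of Ppfia3 (chromosome 7, 45339281 to 45340762), which encodes liprin-α3, had the smallest unadjusted p of the members in edgeR. The WT libraries had 19, 26 and 21 counts of it, against 0 in all 3 libraries labelled 5 × FAD, which is at least 6.54-fold lower when 3 counts per library are taken as the floor. Its adjusted p was 0.205 by edgeR and 0.000409 by DESeq2. The transcript passed the filter on low counts only through the WT libraries, so these p-values do not support the difference on their own. Only 3.9% of its length lies outside coding transcripts, and reads in the rest cannot be assigned to it from the count alone. In the cortex it was at 0 in 2 of the 3 WT libraries, with 13 counts in the other, and at 0, 0 and 2 in 5 × FAD. The gene sum of Ppfia3 ranged from 749 to 1168 counts in the WT hippocampus and from 548 to 829 in the 5 × FAD hippocampus, which overlapped.

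In the cortex, 19 of the 36 tested member gene sums were lower in 5 × FAD, where 50.1% of all gene sums were lower, with a median of -0.053 beside -0.001 over all. No member was called by edgeR as a gene sum (0.0175% of all were called) or as a single transcript (0.0545% of all were called). At an unadjusted p under 0.05, 2 members passed in edgeR, where 6.67% of all gene sums did, and DESeq2 called 0. Slc17a7 was the 1 member whose groups did not overlap, where 13.0% of all gene sums did not. WT libraries had 1624, 1625 and 1372 counts of it and libraries labelled 5 × FAD 1385, 970 and 1078, or 382 ± 22.5 and 275 ± 33.0 CPM (SD, n = 3 each). The log2 difference was -0.47 (standard error 0.14, adjusted p = 0.722 by edgeR), -0.411 without 5 × FAD 3 and -0.616 with the term for Y-linked counts. The other was Sv2a, a vesicle glycoprotein of the same family as Sv2b, at 41.2 ± 7.7 CPM in 5 × FAD and 24.0 ± 7.4 CPM in WT (SD, n = 3 each), which overlapped.

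**Figure D4:**
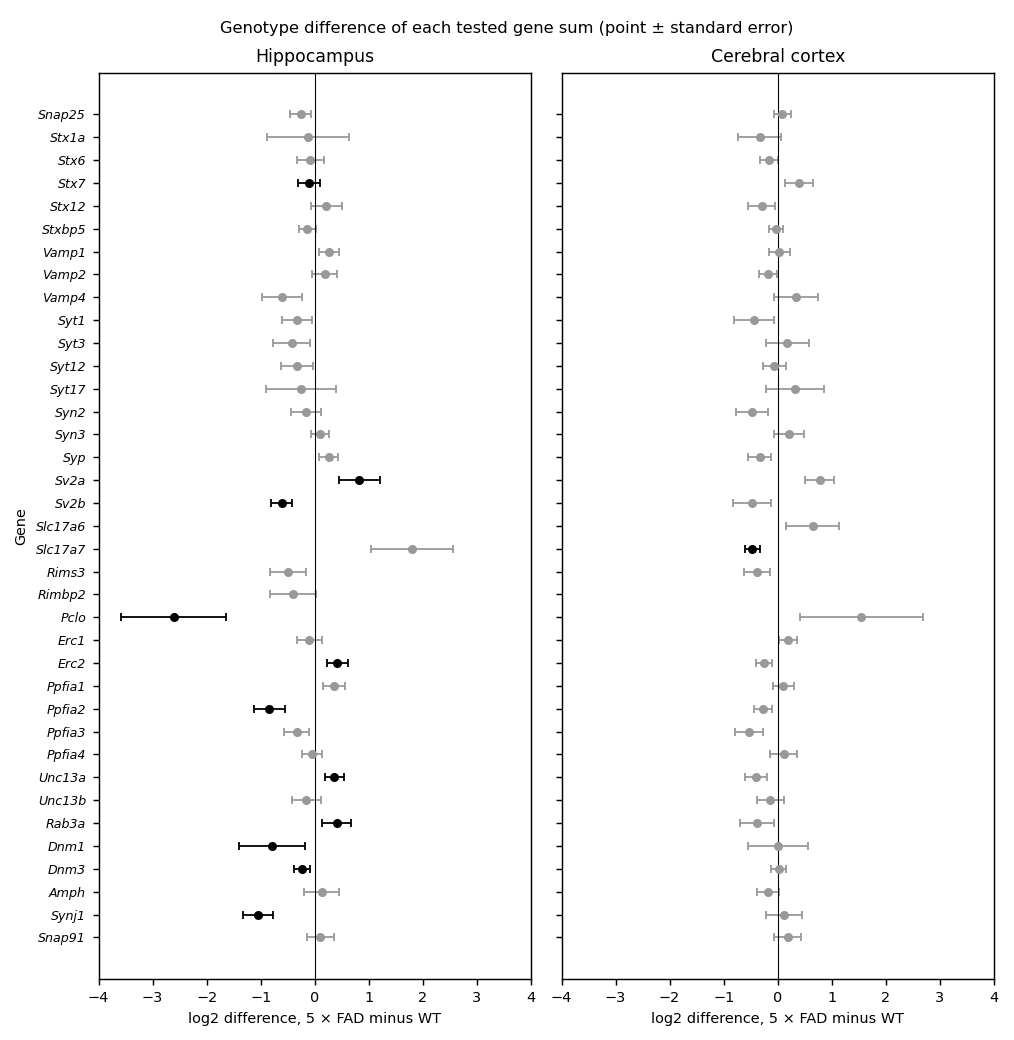
log2 difference of 5 × FAD minus WT for each tested presynaptic gene sum (points) with its standard error (bars), in the hippocampus (left) and the cerebral cortex (right). No point passes the adjusted threshold, and the groups that do not overlap (black) number 11 in the hippocampus and 1, Slc17a7, in the cortex.

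An interaction term over all 12 libraries asked whether the genotype difference was unlike in the hippocampus and the cortex. No member was called by edgeR or DESeq2 as a gene sum (0.0% of all gene sums were called by edgeR) or as a transcript (0.00812% of all were called). At an unadjusted p under 0.05 in edgeR, 5 of 37 member gene sums passed, where 7.01% of all did. These were Unc13a (0.73, standard error 0.27), Erc2 (0.64, standard error 0.24) and Slc17a7 (2.24, standard error 0.85), with a more positive log2 difference in the hippocampus than in the cortex. Synj1 (-1.19, standard error 0.46) and Pclo (-4.19, standard error 1.69) had a more negative one there. Erc2 encodes the active zone protein CAST. The adjusted p of the 5 lay between 0.660 and 0.672.

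Replicates of the same group differed widely for some of the transcripts. Among the 85 member transcripts with a mean of at least 20 counts, 12 (14.1%) had a group in which the highest library was over 5 times the lowest, beside 16.5% of all such Ensembl transcripts. They belonged to Slc17a7, Erc2, Ppfia3, Stx1a, Pclo, Syt1, Dnm1 and Ppfia4. A wide spread of a transcript was not always one of its gene sum. In the WT hippocampus, ENSMUST00000186964 of Ppfia4 had 353, 331 and 48 counts and ENSMUST00000189862 had 149, 73 and 427. The Ppfia4 gene sum was 535, 436 and 509 counts there. ENSMUST00000145885 of Dnm1, for example, had 1467, 1365 and 1291 counts in the WT hippocampus and 896, 97 and 983 in the 5 × FAD hippocampus. In the WT cortex the values were 1629, 1262 and 156, and in the 5 × FAD cortex 1039, 863 and 1101. ENSMUST00000211627 of Erc2 had 224 counts in the WT cortex 3 library and 3 to 14 in the other 11 libraries. The low Dnm1 values were thus in 1 library of each genotype.

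The spread differed with the make-up of the transcript. Of the 43 member transcripts with at least 50% of their length outside coding transcripts, 0 had such a group, and the median of the widest ratio was 1.87. Of the 28 transcripts with 10% to under 50% outside, 7 had one, with a median of 2.35, and of the 14 with under 10% outside, 5 had one, with a median of 3.32. Pclo, with 2.1% outside coding transcripts, was among the last, whereas Snap25, with 93.4%, ranged only from 730 to 1358 counts over all libraries. These ratios describe the transcripts and were not tested.

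**Figure D5:**
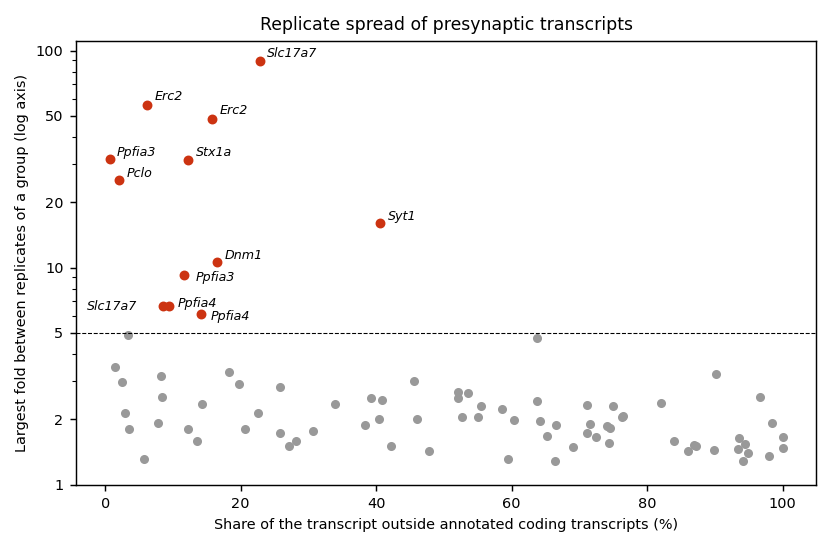
Largest ratio of the highest to the lowest library within a group (log axis, from CPM + 0.5) against the share of the transcript outside coding transcripts, for the 85 presynaptic transcripts with a mean of at least 20 counts. The 12 transcripts above the dashed line at 5 (red, with gene names) all have under 50% of their length outside coding transcripts.

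Of 85 other genes of the vesicle release pathway, such as further syntaxins, VAMPs and synaptotagmin-like proteins, 59 had a row. None of the 50 to 53 tested was called by edgeR in any of the 5 comparisons of gene sums. At an unadjusted p under 0.05, 1 was higher and 0 were lower in the 5 × FAD hippocampus, and 1 was higher and 2 were lower in the 5 × FAD cortex. In the hippocampus their median log2 genotype difference was 0.150, beside -0.132 for the 36 members. Between the regions in WT mice, 4 were higher and 5 lower in the hippocampus at this threshold.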

How the data were processed

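The authors deposited one table of whole-number counts per transcript, labelled as lncRNA counts and not normalized, for 12 libraries. Per the labels, ribosomal RNA was depleted, stranded libraries were sequenced from both ends, and the submitters' processing notes name Trimmomatic 0.36 and edgeR. The aligner, the counter, the genome build and the annotation of this table were not given in the sources used here, nor whether a count is a number of reads or a rounded estimate. All 12 columns were used, and 0 other columns of values were left out. Groups and numbers came from the labels. The p-values set the difference between groups against the spread of the 3 libraries within each group. In the main fits of the region comparisons, libraries from the same mice were treated as independent.

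Transcripts were named and placed with GENCODE M21 (GRCm38), and their sequences were taken from its transcript file. Transcripts were summed by gene name or assembled locus. Both levels were tested in edgeR 4.0.16 (R 4.3.3) with filterByExpr, TMM scaling, glmQLFit and glmQLFTest over the 6 libraries of a comparison (12 for the interaction), with Benjamini-Hochberg adjustment over all features and a threshold of 0.05. The standard error is the log2 difference divided by the square root of F. CPM was computed with TMM-scaled library sizes of the libraries in each comparison, and over all 12 libraries for levels and figures. Alternatives were DESeq2 1.42.0, other scalings and filters, robust estimation, leaving out assembled or all-or-none transcripts (100 or more counts where present, no more than 3 in every other library), a replicate block, one fit of 12 libraries, a term for Y-linked counts, and leaving out each library. The members and the lists were chosen with earlier results of these data known. Full values are given for members called in any comparison, for those with an unadjusted p under 0.05 and no overlap between genotypes, and for the most abundant member of each role. The other named members were chosen after their values were seen.

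The functions were tested on simulated counts. For gene sums in the hippocampus genotype comparison (11343 tested), 10.4%, 63.9% and 98.4% of log2 changes of 1, 2 and 4 were recovered. These were 7, 39 and 61 true calls, beside 14 false calls of unchanged gene sums. For single transcripts there (21894 tested), 0%, 14.5% and 76.1% were recovered, or 0, 8 and 54 true calls beside 13 false ones. For single transcripts in the WT region comparison, 0, 14 and 47 true calls stood beside 10 false ones. No 2 libraries of a group agreed within sampling noise, with chi-square per degree of freedom from 20.81 to 33.04. The total counts, 3517967 to 5014389 per library, set the precision, and floors cover counting error only.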

Additional observations from a re-analysis of the deposited data

How the results depend on the processing

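With 3 libraries a group at this depth, few simulated log2 changes of 1 were called. The 0 members called for genotype and for the interaction stayed at 0 in every alternative, leaving out each library included, except that DESeq2 called 1 member transcript in the hippocampus (Ppfia3 ENSMUST00000210844). Over all features the number called moved widely with the setting, from 0 to 83 gene sums in the hippocampus, 0 to 53 in the cortex and 0 to 19 for the interaction, and from 5 to 761 for the region in WT and 0 to 336 in 5 × FAD mice. For single transcripts it ran from 0 to 127, 0 to 102, 0 to 105, 0 to 743 and 0 to 366 in the same order. DESeq2 gave the highest of these counts.

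For the region in WT mice, 1 member gene sum was called in 8 of 10 alternatives, 2 with DESeq2 (Ppfia2 and Stx1a), and 1 to 2 when a library was left out, Pclo being added without WT cortex 3. Of member transcripts, 2 were called, 0 with no filter on low counts, 1 without assembled transcripts, 3 with at least 10 counts in every library (Stx1a ENSMUST00000144198 added), 5 with DESeq2 (also Pclo ENSMUST00000182426, Ppfia4 ENSMUST00000186964 and the Stx1a transcript), and 0 to 0 when any library was left out. For the region in 5 × FAD mice, 0 member gene sums were called, 1 with all 12 libraries in one fit (Ppfia2) and 2 with DESeq2 (Ppfia2 and Slc17a7), and 2 member transcripts were called by DESeq2 (Ppfia2 ENSMUST00000219024 and Ppfia3 ENSMUST00000210479).

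The genotype differences of Synj1, Sv2b, Ppfia2 and Pclo in the hippocampus and of Slc17a7 in the cortex kept their direction in all alternatives, with adjusted p from 0.0897 to 0.953. The log2 difference of Slc17a7 in the hippocampus was reversed to -0.2 with the term for Y-linked counts. The cause was not tested.

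Both regions came from the same mice, but whether equal numbers mark the same mouse is not stated. Deviations from the group means of same-numbered hippocampus and cortex libraries correlated between -0.085 and 0.161, and 1 of 6 libraries correlated best with its own number. The numbers were not taken as pairs in the main fits. Within 5 × FAD, only number 3 had Y-linked counts, and it had them in both regions, so number 3 matched between the regions there. The other 5 × FAD numbers and those of WT could not be matched in this way. With the replicate block, 0 member gene sums (Ppfia2 at an adjusted p of 0.054) and 0 member transcripts were called for the region in WT mice, with 5 gene sums called in all, and no other member count changed.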
